A study of Homo sapiens with 48 samples.

Results

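The genes of nuclear pores and of nuclear transport examined here are the nucleoporins (the NUP genes, RANBP2 and TPR), the importins and transportins (the KPNA, KPNB, IPO and TNPO genes), the exportins (the numbered XPO genes and CSE1L, without XPOT) and the small GTPase RAN. They were chosen by a rule on gene symbols, which gave 48 of the 12256 genes in the deposited tables. No measured value entered the rule, though earlier results of these data were known. All 48 are among the 11947 genes of the total RNA table, and 47 are among the 11145 genes of the table of ribosome-protected fragments (RPFs). KPNA5 is in total RNA only.

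The libraries come from SW480, a human colorectal cancer (CRC) line, stably transduced with a lentiviral DOX-inducible shRNA. The 3 lines carry a non-targeting shRNA (shCTRL), an shRNA against EIF2B1, which encodes eIF2Bα (shEIF2B1), or an shRNA against EIF2B4, which encodes eIF2Bδ (shEIF2B4). Each line was kept for 5 days with DMSO (-DOX) or with DOX at 1 µg/ml (+DOX). The 4 replicates were made in different weeks. From each of the 24 lysates both RPFs and total cytoplasmic RNA were sequenced, which makes 48 libraries. Each knockdown rests on a single shRNA. Values are on the log2 scale, regularized by DESeq2, so a difference of 1 is a doubling of the regularized value. Low genes are shrunk towards their mean, so for them it is not a doubling of counts. Without read counts the depth of the libraries is unknown. Translation efficiency (TE) is the log2 RPF value of a lysate less its log2 total RNA value.

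Nuclear pores are rings of nucleoporins set in the nuclear envelope. An outer ring of Y complexes and an inner ring form the scaffold, nucleoporins rich in phenylalanine-glycine repeats fill the channel, and the basket and the cytoplasmic filaments extend from either face. Importin α proteins (the KPNA genes) bind the nuclear localisation signal of a cargo and importin β (KPNB1) carries them through the pore, while other members of the importin β family bind their cargo directly. RAN loaded with GTP releases imported cargo in the nucleus and joins exportins to the cargo that leaves. eIF2B is the exchange factor that recharges eIF2 with GTP for translation initiation.

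The response to a knockdown is the change from -DOX to +DOX in that line less the change in shCTRL. It was fitted by limma over 16 libraries, the replicate being a block. A gene counts as called where its p, adjusted over all genes of a table by Benjamini-Hochberg, was under 0.1. The targeted genes fell in their own lines in total RNA. EIF2B1 lay between 8.19 and 8.38 in the 4 uninduced and between 7.10 and 7.68 in the 4 induced shEIF2B1 libraries, a response of -0.67 (adjusted p = 0.0263). EIF2B4 lay between 6.88 and 7.42 in the uninduced and between 6.47 and 6.68 in the induced shEIF2B4 libraries, a response of -0.49 (adjusted p = 0.0634). In RPFs EIF2B1 fell by 0.53 (adjusted p = 0.0109) and EIF2B4 was at -0.48 (adjusted p = 0.236). ATF4, DDIT3 and PPP1R15A, genes of the integrated stress response, rose in RPFs after both knockdowns. Of 7 markers of colon epithelium 5 were listed (EPCAM, KRT8, KRT18, CDH1 and CDX2), and none of 6 markers of leukocytes, fibroblasts and endothelium was. In such bulk samples fewer cells of a kind and less RNA per cell cannot be told apart.

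In uninduced shCTRL cells the highest levels were those of RAN and of a few transport receptors. Set per kb of coding sequence (CDS), the log2 RPF level of RAN was 12.52 ± 0.36 (SD, n = 4), above 97.8% of genes. KPNA2, an importin α that is abundant in dividing cells, followed at 9.94 ± 0.48, KPNB1 at 9.64 ± 0.32, CSE1L at 9.21 ± 0.46, IPO7 at 8.74 ± 0.51 and XPO1 at 8.46 ± 0.39 (SD, n = 4 each). RAN lay clear of KPNA2, whereas from KPNA2 to XPO1 each of these receptors differed from the next by less than the larger of their SDs. The highest levels among nucleoporins were those of NUP37, a Y complex subunit, at 8.47 ± 0.43 and NUP210 at 8.44 ± 0.31, which differed by less than either SD. The lowest were TPR, which forms the filaments of the nuclear basket, at 5.10 ± 0.43 and RANBP2, the main protein of the cytoplasmic filaments, at 4.58 ± 0.35. The median of the 45 members with a known CDS length was 7.39, against 6.56 over 10848 genes, and 33 of the 45 lay above the latter.

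After shEIF2B1 induction, 21 of the 47 members fell in RPFs and 1 rose. Among all genes 15.3% fell and 12.0% rose. The median log2 response of the members was -0.38 against -0.01 for all genes, and 41 of 47 members were below 0. With the trend on CDS GC content removed from each library the median was -0.15, and 34 of 45 members were below 0. In 26 members the value was below 0 in each of the 4 weeks, as it was in 22.5% of all genes. The members that fell span most parts of the transport machinery, and the 4 largest falls were in the receptors KPNA2, CSE1L, XPO1 and IPO7.

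**Figure D1:**
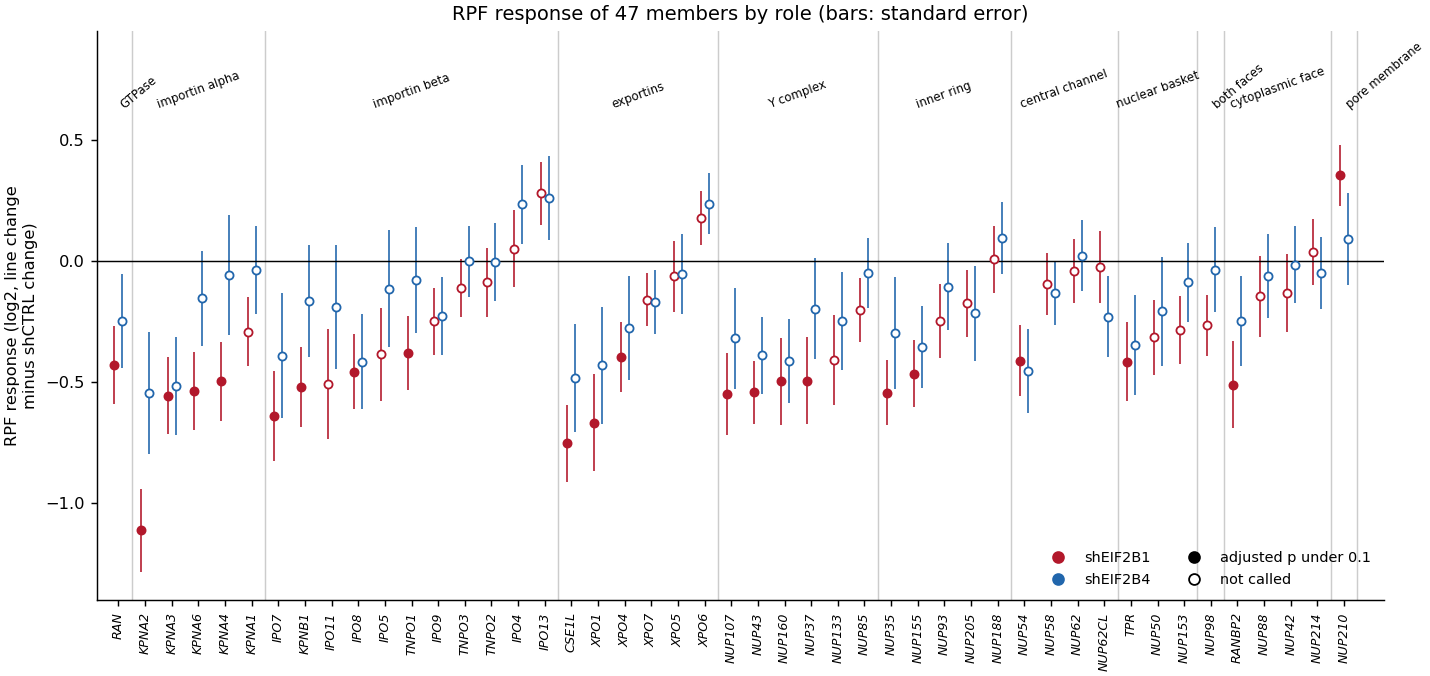
RPF responses of the 47 members to shEIF2B1 (red) and shEIF2B4 (blue), on the log2 scale with standard errors, grouped by role and sorted within a role. Filled points passed an adjusted p under 0.1. KPNA2 had the lowest value at -1.11, NUP210 at 0.35 was the only filled point above 0, and no shEIF2B4 point is filled.

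KPNA2 had the largest fall. Its log2 RPF values were 10.63, 11.12, 11.01 and 11.35 in shEIF2B1 -DOX and 9.61, 9.79, 9.92 and 10.08 in shEIF2B1 +DOX, in replicates 1 to 4. All induced values lay below all uninduced ones. In shCTRL they were 9.93, 10.62, 10.83 and 11.04 without DOX and 10.50, 10.27, 10.40 and 10.99 with it, so these groups overlapped. The response was -1.11 (standard error 0.17, adjusted p = 0.000379), below 0 in 4 of 4 weeks.

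CSE1L, the exportin that returns importin α to the cytoplasm, had values of 10.93, 11.87, 10.88 and 11.61 in shEIF2B1 -DOX and of 10.15, 10.87, 10.36 and 11.00 in shEIF2B1 +DOX. Within each week the induced value was lower, but the groups overlapped because the weeks lay far apart. In shCTRL its values were 10.34, 11.02, 10.40 and 11.26 without DOX and 10.59, 10.70, 10.52 and 11.31 with it. Its response was -0.75 (standard error 0.16, adjusted p = 0.00415), in 4 of 4 weeks.

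XPO1, the exportin for cargo with leucine-rich export signals, had values of 10.22, 11.49, 10.32 and 11.26 in shEIF2B1 -DOX and of 9.65, 10.22, 10.10 and 10.69 in shEIF2B1 +DOX. The shCTRL values were 9.75, 10.28, 9.92 and 10.63 without DOX and 9.87, 9.95, 9.96 and 10.85 with it. The response of XPO1 was -0.67 (standard error 0.20, adjusted p = 0.0259). The induced shEIF2B1 values of XPO1 cover nearly the same range as both groups of shCTRL, and the uninduced shEIF2B1 values are the ones that stand higher.

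NUP210, a glycoprotein of the pore membrane, was the member that rose. Its values were 10.81, 10.36, 10.89 and 10.35 in shEIF2B1 -DOX and 11.28, 10.81, 11.24 and 10.69 in shEIF2B1 +DOX. In shCTRL they were 11.26, 10.80, 11.12 and 10.58 without DOX and 11.16, 11.06, 11.23 and 10.52 with it. The induced values covered nearly the same range as shCTRL and the uninduced ones reached lower, and the groups of the line overlapped. The response was 0.35 (standard error 0.12, adjusted p = 0.0545).

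**Figure D2:**
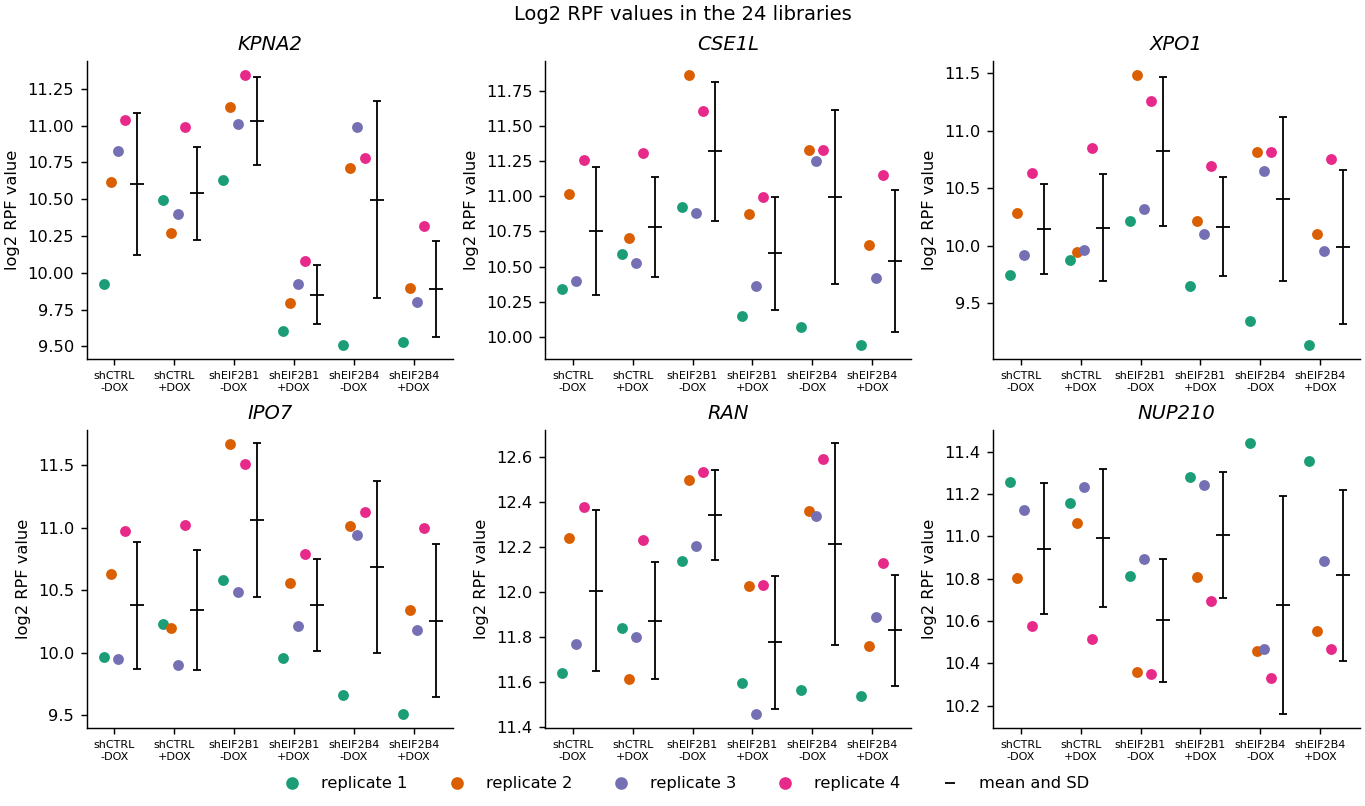
Log2 RPF values of 6 members in the 24 RPF libraries, 4 replicates in each of 6 groups, with the mean and SD of each group beside the points. KPNA2 is lowest in the induced knockdown lines, at 9.61 to 10.08 in shEIF2B1 +DOX, and replicate 1 of shEIF2B4 -DOX stands apart from the other 3 in every panel.

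The falls are given by role, and no difference between roles was tested. Among all genes 15.3% fell, and 35.0% did where under 50% of codons end in G or C. Of the 5 importin α genes in RPFs 4 fell, with a median of -0.54: KPNA3 (-0.56), KPNA6 (-0.54) and KPNA4 (-0.50) beside KPNA2, while KPNA1 was at -0.29 (adjusted p = 0.153). Of the 6 Y complex subunits with NUP symbols 4 fell, with a median of -0.50. They are NUP107 (-0.55), NUP43 (-0.54), NUP160 (-0.50) and NUP37 (-0.50), and the others were at -0.41 (NUP133) and -0.20 (NUP85). Of the subunits with other symbols, which are no members here, AHCTF1 fell by 0.55, SEH1L was at -0.20 (adjusted p = 0.253) and SEC13 at 0.28 (adjusted p = 0.114), above 0 in 4 of 4 weeks. RAN fell by 0.43 (adjusted p = 0.0654), with values of 12.14, 12.50, 12.20 and 12.53 in shEIF2B1 -DOX and 11.59, 12.03, 11.46 and 12.03 in +DOX, which do not overlap. KPNB1 fell by 0.52 (adjusted p = 0.0361), and its values of 10.93, 11.31, 10.82 and 11.33 and of 10.24, 10.61, 10.53 and 10.57 do not overlap either. Such a separation of induced below uninduced shEIF2B1 libraries was found in 10 of 47 members and in 7.78% of all genes. It was found in none of the members in shCTRL or in shEIF2B4, against 1.94% and 2.64% of all genes.

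The importin β family and the exportins were divided. Beside the counts below, 15.3% of all genes fell. Among 11 importin β genes 4 fell: IPO7 (-0.64), which imports ribosomal proteins among other cargo, KPNB1, IPO8 (-0.46) and TNPO1 (-0.38). IPO11 was at -0.51 with a wide standard error of 0.23 (adjusted p = 0.122), IPO4 at 0.05 and IPO13 at 0.28 (adjusted p = 0.137). Of 6 exportins 3 fell, with XPO4 (-0.40) next to CSE1L and XPO1, and XPO6, which exports actin, was at 0.18. Among the inner ring NUP35 (-0.54) and NUP155 (-0.47) fell, and NUP93 (-0.25), NUP205 (-0.17) and NUP188 (0.01) were not called. In the basket TPR fell by 0.42 (adjusted p = 0.0782), while NUP153 was at -0.29 (adjusted p = 0.155). Of the cytoplasmic face RANBP2 fell by 0.51 (adjusted p = 0.0526), a gene whose reads may be shared with the near copies of the RGPD family. In the central channel NUP54 fell by 0.41 and NUP62, the namesake of the channel complex, was at -0.04 (adjusted p = 0.851). NUP98, which lies on both faces, was at -0.27 (adjusted p = 0.144).

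Of 24 further pore and Ran-cycle genes in RPFs, 3 fell and 1 rose, with a median of -0.03, where 15.3% of all genes fell and 12.0% rose. The share of falls is near that of all genes. Among the falls was AHCTF1, which seeds pores on chromatin, and the rise was POM121C (0.48), a pore membrane gene whose reads may be shared with its near copy POM121. Of 15 proliferation genes 9 fell after shEIF2B1, with a median of -0.62, and 1 fell after shEIF2B4. In induced cells 11 of the 15 were called lower in shEIF2B1 than in shCTRL, where 4.81% of all genes were, and all 15 in shEIF2B4, where 25.3% of all genes were and the median of all genes was itself at -0.13. The part of proliferation in the members' responses was not tested.

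The number of calls varied with the weeks and the design. Without replicate 1 there were 6 and without replicate 4 there were 5, and without the replicate block there were none. CSE1L, KPNA2, NUP35 and NUP43 were called with any of the 4 replicates left out. The share of all genes called was not counted in any of these fits, so these counts have no background.

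The lines differed before induction. These contrasts, chosen after the values had been seen, compare each line with shCTRL at the same DOX state, with the replicate as a block. In uninduced cells 33 of 47 members were higher in shEIF2B1 than in shCTRL and 2 were lower (NUP210 and TNPO2), against 29.0% and 25.1% of all genes. The median difference of the members was 0.32, with IPO7 at 0.68, XPO1 at 0.67, RANBP2 at 0.65, CSE1L at 0.57, TPR at 0.53, KPNA2 at 0.42 and RAN at 0.34. In total RNA the median difference between these uninduced lines was 0.07. The targeted gene EIF2B1 had total RNA values of 8.19 to 8.38 in uninduced shEIF2B1 cells and of 8.43 to 8.66 in uninduced shCTRL. That difference was not tested, and the share of all genes so separated was not counted. Whether a lower EIF2B1 level moved the transport genes was not tested either.

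In induced cells 2 of 47 members were lower in shEIF2B1 than in shCTRL and none was higher, against 4.81% and 5.65% of all genes. The median difference was -0.02. The members that were lower are KPNA2 (-0.69, standard error 0.11, adjusted p = 3.94e-05) and KPNA6 (-0.36, standard error 0.12, adjusted p = 0.0624). KPNA6 was named after its value was seen, and its call was lost without replicate 1 or 4, while that of KPNA2 was kept. XPO1 (0.01), IPO7 (0.04), RAN (-0.09), CSE1L (-0.19, adjusted p = 0.356) and KPNB1 (-0.20, adjusted p = 0.352) were not called. All 21 members that fell on induction were called higher in uninduced shEIF2B1 than in uninduced shCTRL, and 2 of them were called lower in induced cells. The response is the induced difference minus the uninduced one, so these counts rest on the same libraries. A high uninduced difference lowers the response by construction, and the like share among all genes that fell was not counted.

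**Figure D3:**
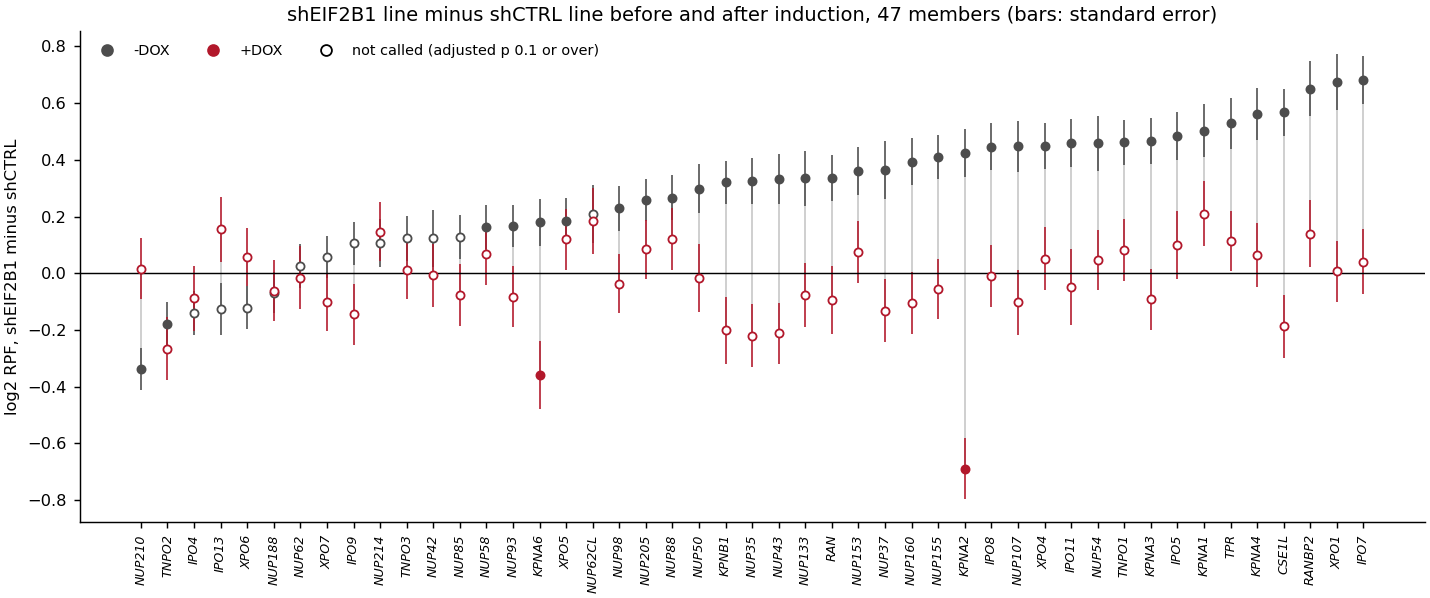
Log2 RPF difference between the shEIF2B1 and shCTRL lines for 47 members, without DOX (grey) and with DOX (red), with standard errors. Filled points passed an adjusted p under 0.1. The grey points rise from -0.34 for NUP210 to 0.68 for IPO7, while the red ones lie near 0 except for KPNA2 at -0.69 and KPNA6 at -0.36.

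After shEIF2B4 no member was called in RPFs by limma, and 8 of 47 had an unadjusted p under 0.05. Among all genes 1.88% rose and 0.870% fell. The median of the members was -0.17 against -0.02 for all genes, and 41 of 47 were below 0, with KPNA2 (-0.55), KPNA3 (-0.52), CSE1L (-0.48), NUP54 (-0.45) and XPO1 (-0.43) the lowest. The median was -0.10 without replicate 3, with 29 of 47 below 0, and -0.07 with the trend on CDS GC content removed, with 30 of 45 below 0. RAN was at -0.25, RANBP2 at -0.25, NUP107 at -0.32, TPR at -0.35, KPNB1 at -0.17, NUP153 at -0.09, NUP98 at -0.04 and NUP62 at 0.02. The values of KPNA2 were 9.51, 10.71, 10.99 and 10.78 in shEIF2B4 -DOX and 9.53, 9.90, 9.80 and 10.32 in +DOX. The uninduced library of replicate 1 stood apart. It held the lowest value of its group in 37 of 47 members, against 42.9% of all genes, and its members lay 0.70 below the median of the other replicates.

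Without that library, an alternative chosen after the values were seen, the median was -0.30 and 12 members were called in RPFs after shEIF2B4, among them KPNA2, CSE1L, XPO1, IPO7 and KPNA3. With all of replicate 1 left out 4 were called, CSE1L, KPNA2, KPNA3 and NUP43. The share of all genes called was not counted in either setting, so these counts have no background. The responses to the knockdowns did not differ in any member by the contrast over 24 libraries, in which 0.00897% of all genes were called lower and 0% higher and 2 of 47 members had an unadjusted p under 0.05. KPNA2 had the widest difference, -0.57 (standard error 0.22, adjusted p = 0.746). An absence of calls does not show that the knockdowns acted alike, since the standard errors of the contrast were 0.11 to 0.25.

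Between induced shEIF2B4 and induced shCTRL cells, 9 of 47 members were lower and none was higher, against 25.3% and 4.09% of all genes. All shEIF2B4 columns lie lower in the deposited table, and the median of all genes in this contrast was -0.13. With each library centred on its median KPNA2 alone was called, and without replicate 3 or 4 there were 4 calls, KPNA2 among them each time. Its difference was -0.65 (standard error 0.10, adjusted p = 0.000605), close in size to that in shEIF2B1, from the same 4 shCTRL libraries. In uninduced shEIF2B4 cells no member was called, with 3 at an unadjusted p under 0.05, against 1.55% of all genes higher and 12.4% lower. The median of the members was 0.04, with 19 of 47 below 0, against -0.13 for all genes. With each library centred on its median it was 0.14, with 9 of 47 below 0. Without replicate 1, which holds the library that stood apart, 20 members were called there, with no share of all genes counted beside them.

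In total RNA no member was called after either knockdown by limma. The members with an unadjusted p under 0.05 numbered 10 of 48 after shEIF2B1 and 5 of 48 after shEIF2B4. Among all genes 2.34% rose and 1.13% fell after shEIF2B1, and 3.78% rose and 1.62% fell after shEIF2B4. The median of the members was -0.14 after shEIF2B1, with 39 of 48 below 0, and -0.04 after shEIF2B4, with 28 of 48 below 0. The latter was -0.03 without replicate 3, -0.07 without replicate 4 and -0.09 with the trend on CDS GC content removed. KPNA2 again had the lowest value after shEIF2B1, -0.43 (adjusted p = 0.116), and was called without replicate 2. Its total RNA values were 10.52, 10.75, 10.69 and 10.79 in shEIF2B1 -DOX and 10.20, 10.12, 10.10 and 10.27 in +DOX, which do not overlap, and 10.45, 10.72, 11.03 and 10.78 in shCTRL -DOX. Such a separation of induced below uninduced shEIF2B1 libraries in total RNA was found in 20 of 48 members and in 14.0% of all genes. The reverse was found in 2 members and in 13.8% of all genes.

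The other main members gave total RNA responses to shEIF2B1 of -0.37 for NUP107, -0.35 for CSE1L, -0.32 for NUP153, -0.28 for NUP98, -0.24 for XPO1, -0.18 for RANBP2, -0.16 for NUP62, -0.15 for KPNB1, -0.12 for TPR and -0.09 for RAN. After shEIF2B4 they lay between -0.28 for NUP62 and 0.07 for RANBP2. None of these passed the test. The contrast of the knockdowns called no member, with 5 of 48 at an unadjusted p under 0.05. Among all genes 0.0586% were called with the higher value after shEIF2B1 and 0.0419% with the lower. NUP153 and NUP98 had RPF and total RNA responses of like size, whereas IPO7 had a response of -0.64 in RPFs and of -0.02 in total RNA. Of 15 proliferation genes 7 fell in total RNA after shEIF2B1. Of 25 further pore and Ran-cycle genes DDX19B, an RNA helicase of mRNA export, rose after shEIF2B1, and after shEIF2B4 XPOT, the exportin of tRNA, rose and RANBP3 fell. DDX19A and DDX19B are near copies, so their reads may be divided between them. TE of DDX19B fell after shEIF2B1, by 0.51 (adjusted p = 0.0946).

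**Figure D4:**
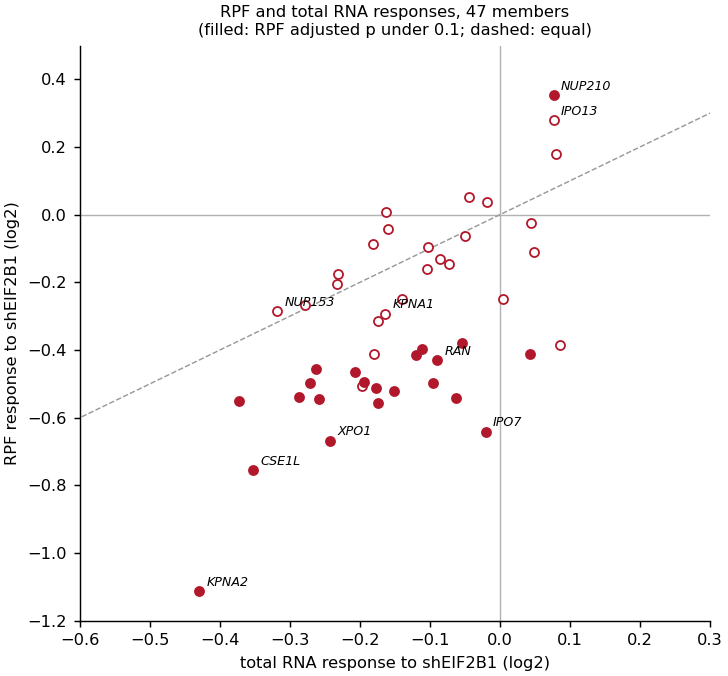
RPF response against total RNA response to shEIF2B1 for 47 members, both on the log2 scale, with the line of equal responses dashed. Filled points passed an adjusted p under 0.1 in RPFs. KPNA2 lies at -1.11 and -0.43, most filled points lie below the dashed line, and IPO7 has -0.64 in RPFs at -0.02 in total RNA.

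TE fell in 2 of 47 members after shEIF2B1, against 4.13% of all genes, and rose in none, against 2.97%. KPNA2 fell by 0.68 (standard error 0.16, adjusted p = 0.0324) and IPO7 fell by 0.62 (standard error 0.20, adjusted p = 0.0873), each in 4 of 4 weeks. The share of calls among the members is near that of all genes. Both calls were lost without replicate 1 or 4, and that of IPO7 also without replicate 3. Without replicate 2 there were 8, with the share of all genes not counted. The RPF values of IPO7 were 10.58, 11.67, 10.49 and 11.51 in shEIF2B1 -DOX and 9.96, 10.56, 10.21 and 10.79 in +DOX. Its total RNA values were 12.93, 13.04, 12.81 and 12.94 and then 13.21, 12.87, 13.45 and 13.24. RPFs fell in each week, while total RNA rose in 3 of 4. In RPFs IPO7 was called higher in uninduced shEIF2B1 than in uninduced shCTRL, by 0.68, and was not called in induced cells. A high uninduced value lowers a response by construction, and TE was not compared between lines at the same DOX state. The median TE response of the members was -0.19, with 34 of 47 below 0, CSE1L at -0.40, XPO1 at -0.43, KPNB1 at -0.37, RAN at -0.34, RANBP2 at -0.34, TPR at -0.30, NUP107 at -0.18, NUP98 at 0.01, NUP153 at 0.03 and NUP62 at 0.12.

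After shEIF2B4 no member was called in TE by limma, with 5 of 47 at an unadjusted p under 0.05, and among all genes 0.0646% rose and 0.0277% fell. The median was -0.19, with 34 of 47 below 0. It was -0.10 without replicate 3, and it turned to 0.02, with 19 of 45 below 0, when the trend on CDS GC content was removed, where that after shEIF2B1 was -0.05. The main members ran from -0.49 for XPO1 to 0.30 for NUP62. IPO7 was at -0.47 and KPNA2 at -0.33. Without the uninduced shEIF2B4 library of replicate 1, 12 members were called in TE, and without all of replicate 1 there were 2, NUP43 and XPO1. Shares of all genes called were not counted in these settings. The contrast of the knockdowns in TE called no member, with 1 of 47 at an unadjusted p under 0.05, and 0% of all genes.

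In shCTRL, where DOX induces the non-targeting shRNA, 1 of 47 members was called in RPFs and 1 of 48 in total RNA, over 8 libraries. These shares are below those of all genes. IPO4, an importin for histones and ribosomal proteins, fell in RPFs by 0.34 (standard error 0.11, adjusted p = 0.0991), where 9.85% of all genes were called. Its values were 9.01, 8.84, 9.18 and 8.95 without DOX and 9.04, 8.19, 8.73 and 8.67 with it, so the fall was seen in 3 of 4 weeks. IPO7 rose in total RNA by 0.28 (standard error 0.08, adjusted p = 0.0966), where 4.44% of all genes were called. Its values of 12.95, 12.83, 12.75 and 12.93 and of 13.06, 13.10, 13.22 and 13.21 do not overlap. Such a separation of induced above uninduced shCTRL libraries was found in 1 of 48 members and in 3.78% of all genes. The reverse was found in 1 member and in 3.26% of all genes. In TE no member was called, with 5 of 47 at an unadjusted p under 0.05, and 0.388% of all genes. Both calls were lost without replicate 2, 3 or 4. With replicate 1 left out, 8 members were called in RPFs and 11 in total RNA, and no member was called when the block was dropped. Shares of all genes called were not counted in these settings.

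The members differ in the base composition of their CDS, and the RPF values followed it. GC3 is the share of codons that end in G or C, computed from GENCODE v29 transcripts on GRCh38. It was known for 46 of 48 members and ran from 26.3% (KPNA5) and 26.7% (NUP35) to 75.4% (NUP210) and 78.9% (TNPO2), with a median of 41.5% against 59.7% over the genes of the RPF table. The members are also long, with a median CDS of 2829 bases against 1308. The transportins TNPO1 and TNPO2 import cargo with proline-tyrosine signals and are near copies at the protein level. Of 884 aligned codons 86.2% coded for the same residue, and in 58.7% of those the last base differed. The first stretch of 10 codons that codes for the same residues in both and lies within a single exon of each is shown because the coding choice is visible in it, 5′ to 3′ with the last base of each codon in capitals. It lies at chr5:72851268-72851297 on the plus strand for TNPO1 and at chr19:12719283-12719312 on the minus strand for TNPO2 (GRCh38, GENCODE v29), in a coding exon of each.
TNPO1: ccAgaCttTaaCaaCtaCttGatTttTgtT
TNPO2: ccTgaCttCaaCaaCtaCctGatTttCgtC
Of the 10 last bases 5 are G or C in TNPO1 and 8 in TNPO2, and over the whole CDS GC3 was 37.9% and 78.9%. TNPO1 fell in RPFs after shEIF2B1 (-0.38, adjusted p = 0.0863), while TNPO2 was at -0.09 (adjusted p = 0.697). Before induction the shEIF2B1 line minus shCTRL was 0.46 in TNPO1 and -0.18 in TNPO2. The importin α genes KPNA1 and KPNA6, which share 82.2% of residues, went the other way: KPNA6 with GC3 of 54.9% fell by 0.54 and KPNA1 with 43.5% was at -0.29.

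Of the 31 members in RPFs with GC3 under 50%, 18 fell after shEIF2B1, against 35.0% of the genes with such a CDS, and all 31 were below 0, with a median of -0.42 against -0.28. Of the 14 with GC3 of 50% or over, 2 fell (RAN and KPNA6), against 4.53%, and 1 rose, against 17.8%. Of these 14, 9 were below 0, with a median of -0.08 against 0.11. Across the 45 members with a known GC3, Pearson's r of the RPF response with GC3 was 0.67 for shEIF2B1 and 0.69 for shEIF2B4, and over 10848 genes it was 0.61 and 0.52. Across the members, r for the uninduced difference between shEIF2B1 and shCTRL was -0.85, and for the induced difference it was -0.09. Between shEIF2B4 and shCTRL it was -0.79 for the uninduced and -0.004 for the induced difference. With the trend on CDS GC content removed from the fit over all genes, CSE1L and KPNA2 were the only members called. The share of all genes called in that fit was not counted. These correlations are across genes that share the same libraries, and they are given as a description.

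The weeks showed the same pattern with no part of the treatment in it. For each replicate number the mean over its 6 RPF libraries was set against the mean of all 24. Its r with GC3 over the 45 members was 0.87 for replicate 1, -0.84 for replicate 2, 0.72 for replicate 3 and -0.84 for replicate 4. CSE1L had replicate means of 10.34, 11.07, 10.64 and 11.28, and NUP210 had 11.22, 10.67, 10.97 and 10.49. The range of the 4 means had a median of 0.48 over the members and 0.43 over all genes. In total RNA the r values were -0.39, 0.50, 0.57 and -0.65, and the members' deviations stayed within -0.15 and 0.16. RPF differences between weeks, between uninduced lines and on induction thus all varied with GC3 in these genes, and the part of composition in the responses was not tested beyond the removal of the trend.

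**Figure D5:**
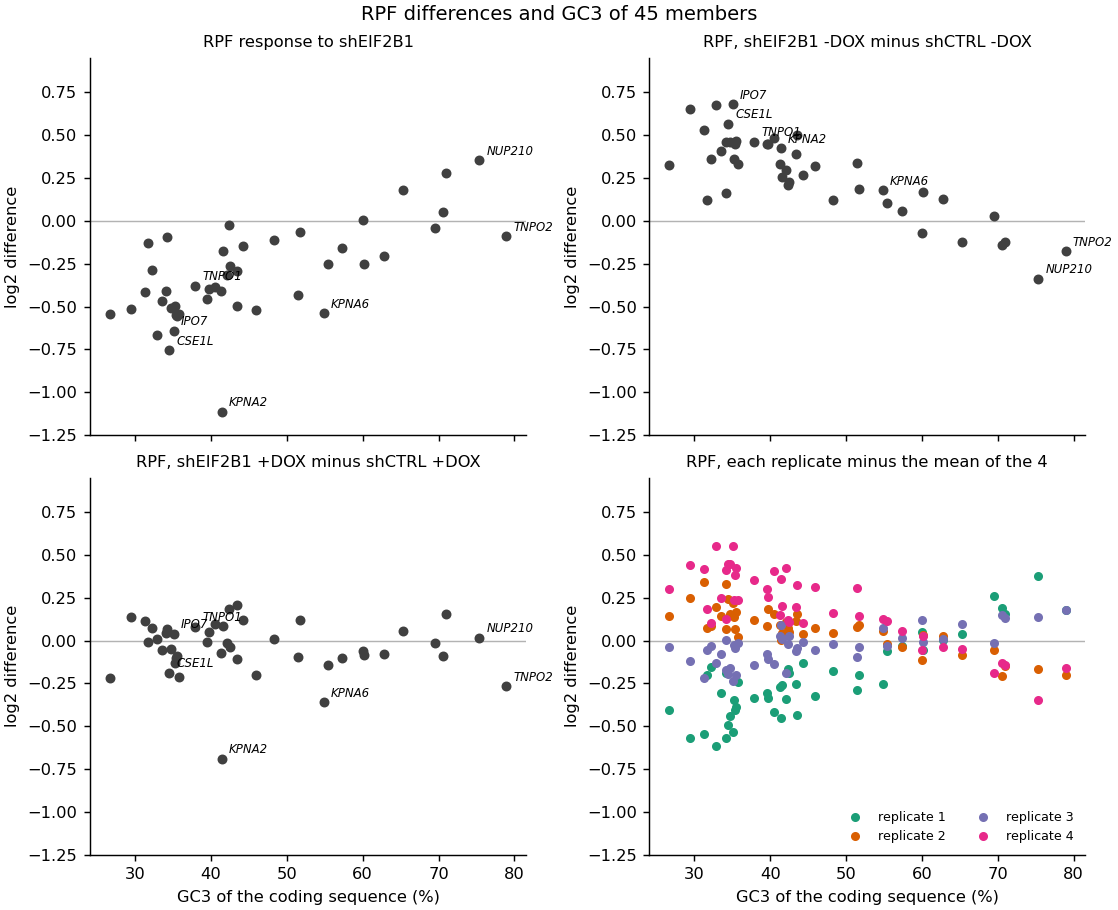
Log2 RPF differences of 45 members against the GC3 of their CDS in percent, for the response to shEIF2B1, the shEIF2B1 line minus shCTRL without and with DOX, and each replicate minus the mean of the 4. The uninduced difference falls with GC3 (r = -0.85), the induced difference does not (r = -0.09), and KPNA2 lies far below the other points in the panels of the response and of the lines with DOX.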

How the data were processed

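RPFs and total cytoplasmic RNA were sequenced from the same 24 lysates. The authors removed duplicates, mapped total RNA to protein-coding transcripts of GENCODE v38 with bowtie2 and quantified it with RSEM. RPFs, cleared of rRNA, tRNA and mitochondrial reads, were mapped to the most expressed transcript of each gene and counted on its CDS. The authors turned these counts into log2 values by the regularized logarithm of DESeq2, separately for RPFs and total RNA, and deposited those. Reads of replicate 3 came from a pair of sequencing runs that were joined. Such values hold no depth, shrink low genes towards their mean and permit no count test.

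The values were fitted as deposited with limma 3.58.1 in R 4.3.3 (lmFit and eBayes with a mean-variance trend, two-sided, Benjamini-Hochberg over all genes), with replicate as a block and the product of line and DOX as the response. Tables were made with Python 3.11.15 and figures with matplotlib 3.10.9. The fit was checked on simulated data with noise drawn independently for each gene. That check does not cover deviations shared by many genes of a library. The replicate number marks the week of culture. Deviations from group means of same-numbered libraries correlated above 0.1 in 52 of 60 pairs of RPF libraries, 37 of 60 of total RNA and 55 of 60 of TE.

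Members and gene lists were chosen with earlier results of these data known. Named in every measure were RAN, KPNB1, XPO1, CSE1L, RANBP2, TPR, NUP98, NUP153, NUP62 and NUP107, plus for each response up to 3 called rises and falls with 1 sign in all weeks, and members called in shCTRL or between knockdowns. Other members were given to complete a role or were chosen after their values were seen. Of the further pore and Ran-cycle genes up to 2 called rises and falls per response were named. A gene among these is not reported here by name. CDS properties came from GENCODE v29 on GRCh38, matched by transcript without version, for 97.3% of RPF genes and 46 of 48 members, 28.3% of which had the same version. KPNA4 and NUP214 had no match. Per-kb levels are log2 values minus log2 of CDS length in kb. Alternatives were the fit without the block, without the trend, with centred libraries, with a filter on low genes, with all lines, without shCTRL, with a stricter threshold, with the CDS GC trend removed and without each replicate. Line differences at 1 DOX state and the fits without the uninduced shEIF2B4 library of replicate 1 were added after the data were seen.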

Additional observations from a re-analysis of the deposited data

Results flagged for a closer look

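For 8 genes the 4 libraries of each group were searched for a value set apart from the other 3. These genes are the members named by the fixed rule for a response or for the shCTRL change, and the targeted genes. By Dixon's test, which flags about 1 in 20 groups by chance, 12 of 96 groups held such a value. In RPFs of uninduced shEIF2B4 cells the value of replicate 1 stood apart for CSE1L (10.07), IPO7 (9.66), XPO1 (9.35) and NUP210 (11.44), the last of them high and the others low. These come from a single library, the one whose removal changed the shEIF2B4 result. XPO1 had a high RPF value of 10.85 in replicate 4 of induced shCTRL. In total RNA a value stood apart for CSE1L (11.58), NUP210 (9.64) and XPO1 (11.17) in induced shEIF2B1 cells, for XPO1 (12.08) in uninduced shCTRL, for EIF2B1 (8.10) in induced shCTRL, and for IPO7 in uninduced (12.58) and induced (13.23) shEIF2B4 cells.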

How the results depend on the processing

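Counts here are members called by limma. Shares of all genes called were counted for the main fits only, so none stands beside the counts of the alternatives. After shEIF2B1, 22 members in RPFs became 0 with no replicate block, 10 with all 24 libraries in a single fit, 37 without the correction for shCTRL, 2 with the CDS GC trend removed, 13 at an adjusted p under 0.05, and 5 to 22 with a replicate left out. After shEIF2B4, 0 became 10 without the correction for shCTRL, 12 without the uninduced library of replicate 1 and 0 to 4 with a replicate left out, the 4 being CSE1L, KPNA2, KPNA3 and NUP43 without replicate 1. In total RNA 0 became 2 (all libraries), 21 (no shCTRL correction) and 0 to 1 (a replicate left out) after shEIF2B1, and 13 (no shCTRL correction) after shEIF2B4. In TE after shEIF2B1, 2 became 0 with no replicate block, with all libraries or with the GC trend removed, 1 with centred libraries, with low genes left out or at the stricter threshold, 10 with no shCTRL correction and 0 to 8 with a replicate left out. In TE after shEIF2B4, 0 became 12 without the uninduced library of replicate 1, 2 with no shCTRL correction and 0 to 2 with a replicate left out.

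In shCTRL, the single call became 0 in RPFs with no replicate block and at the stricter threshold, and 0 to 8 with a replicate left out. In total RNA it became 0 with no replicate block, with centred libraries and at the stricter threshold, and 0 to 11 with a replicate left out. TE calls were 0 to 2 with a replicate left out. All line differences in RPFs gave 0 with no replicate block. With a replicate left out they were 30 to 34 of the members for uninduced shEIF2B1, 1 to 2 for induced shEIF2B1, 0 to 20 for uninduced shEIF2B4 (20 without replicate 1) and 4 to 11 for induced shEIF2B4. Induced shEIF2B1 gave 1 at the stricter threshold and induced shEIF2B4 gave 1 with centred libraries. The contrasts between the knockdowns stayed at 0 in every setting run. Among values of single named genes, 714 of 809 kept their direction and side of the threshold, 67 lost the call, 28 gained one and none reversed. Fits with libraries left out also had fewer samples, and the cause of the changes was not tested. With no counts, depth cannot be related to any of these changes.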
